A study of Rattus norvegicus with 4 samples.

Results

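The respiratory chain of the mitochondrial inner membrane passes electrons from NADH and succinate to oxygen and pumps protons as it does so. Its 4 protein complexes are NADH dehydrogenase (complex I), succinate dehydrogenase (complex II), the cytochrome bc1 complex (complex III) and cytochrome c oxidase (complex IV). Most subunits are encoded in the nucleus and imported, while a core set is encoded by mitochondrial DNA. Iron is built into the chain as iron-sulfur clusters and haem, and zinc is bound by a few subunits. Described here are 42 nuclear-encoded subunit genes of complexes I to IV. They were taken from a fixed list of symbols, which was chosen with earlier results of these data known. The list holds 25 genes of complex I, 4 of complex II, 6 of complex III and 7 of complex IV. A probe could be tied to 40 of the 42, among 16581 genes with a symbol on the array. Ndufa8 and Ndufs6 of complex I had no probe tied to their symbol. The 40 genes were read by 47 probes, and 33 of them had 1 probe each.

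The measurements come from NR8383, a line of macrophages that was derived from lung lavage of a normal rat. After 20 passages the cells received NiZnFe2O4, whose formula holds nickel, zinc, iron and oxygen, for 4 h at a dose of 9.25 µg/mL. The exposure was done in 4 biological replicates, and the total RNA of each, made into Cy3-labelled cRNA, went onto a one-colour Agilent array of its own. The stated design also includes cells without the particle; those arrays were not analysed here, so all values describe exposed cells and no change on exposure was measured. Because a flask yields bulk RNA, fewer cells carrying a transcript and less of it per cell cannot be told apart.

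The arrays held 58717 spots for rat transcripts each, of which 21812 to 24981 were well above background and 0 were saturated. The labelled cell type was checked on 12 macrophage markers, of which 7 were well above background on all 4 arrays. These were Cd68 (mean level 7.13), Lyz2 (9.43), Fcgr2b (5.09), Ptprc (3.72), Itgam (2.71), Csf1r (0.95) and Cd14 (0.09). Marco, Adgre1 and Cd163 passed on none by the same flag, and Mrc1 and Msr1 on 3. The macrophage share was thus 58.3%, beside 38.7% of all genes with a symbol. Of 10 lung epithelial markers 1 passed on all arrays and of 8 lymphocyte markers 2. Of 9 fibroblast and endothelial markers 3 passed (33.3%, near the share of all genes) and of 8 muscle genes 2. Those that passed were Foxj1 of epithelium (mean level 0.60), Nkg7 (0.94) and Lck (0.19) of lymphocytes, and Vwf (5.05), Dcn (0.55) and Cdh5 (-0.04) of endothelium and fibroblasts, while Sftpc, Epcam, Cd3e and Col1a1 passed on no array. Their part in the results was not tested. All values below are on a log2 scale: the processed signal of the probe minus the 75th percentile of all probes on the same array. Different probes bind with different strength, so the level of 1 gene is not set against that of another, and genes are compared only in how they were detected and in how they deviated between arrays. No test between groups could be made with 1 group of samples.

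Nearly all measured subunit genes of the chain were detected. The scanner software marked 38 of the 40 (95%) as well above background on every array, and 38.7% of all genes with a symbol. By complex this was 21 of 23 genes for complex I and every measured gene for complexes II, III and IV (4, 6 and 7 genes). Their spots were 12.5 to 1390 times as bright as the local background. The 2 genes that did not pass, Ndufa10 and Ndufs4, both belong to complex I, each had 1 probe and passed on 0 arrays.

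**Figure D1:**
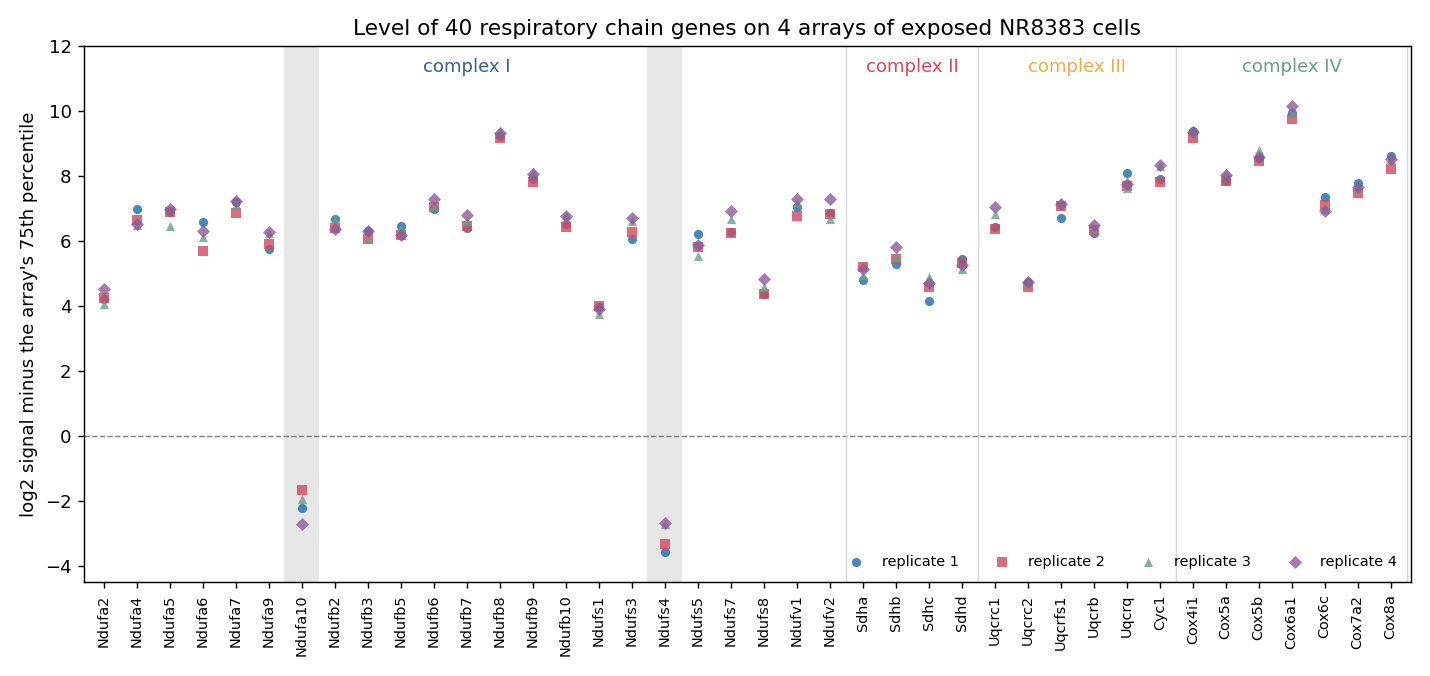
Level of each of the 40 genes (x axis, grouped by complex) on each of the 4 arrays (points), as log2 signal minus the array's 75th percentile, which is the dashed line at 0. The 38 genes above background have mean levels between 3.90 and 9.93, and Ndufa10 and Ndufs4 (grey bands) lie below 0 on every array.

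What the promoters of these genes share was examined next, since the list had been drawn up without sequence. RefSeq promoter windows (rat assembly GRCr8, 250 bases before the start and 50 after it) were held for 36 of the 42 genes. They were searched on both strands for 7 short motifs, which were chosen with earlier results of these data known. The letters AAGATGGC, the core of the element bound by the transcription factor YY1, were found in 10 of the 36 windows (27.8%), against 6.36% of the windows of genes above background and 3.17% of all 33469 windows. The 36 windows were not limited to genes above background. Among the 10 matches are Ndufs4, which was not above background, and Ndufs6, which had no probe. All 10 matches began between 4 bases before the start and base 27 after it, and 9 ran in the direction of transcription. The letters contain an ATG, and whether they cover the start codon was not tested. The stretches around 9 of these matches are printed here from 5′ to 3′ on the strand of the gene, with the match in capitals, to show where each match sits and what letters flank it.
Ndufa6, chr7:115750284-115750313, minus strand: gcttccttagcAAGATGGCggccgcggcca
Ndufa9, chr4:161374142-161374171, minus strand: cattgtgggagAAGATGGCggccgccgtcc
Ndufb8, chr1:253362897-253362926, minus strand: cggagaaggtgAAGATGGCggcgtcccggg
Ndufs4, chr2:47794892-47794921, minus strand: ttgcccacaggAAGATGGCggcggtctcaa
Ndufs6, chr1:31797412-31797441, plus strand: gggtcgtcggcAAGATGGCggcggcgctga
Ndufs7, chr7:10110476-10110505, minus strand: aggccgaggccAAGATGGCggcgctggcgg
Sdhc, chr13:86098004-86098033, minus strand: ggccggaactcAAGATGGCtgcgctcttgc
Uqcrc1, chr8:118468211-118468240, plus strand: acggaagttagAAGATGGCggcgtccgcag
Cox8a, chr1:213833609-213833638, minus strand: cggctattgcgGCCATCTTgacttcctgac
In Cox8a the match is on the opposite strand. The tenth match was in Ndufa2, so 7 of the 10 genes belong to complex I and 1 each to complexes II, III and IV.

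The core of the ETS site, CCGGAAG, which GABPA binds, was found in 13 of the 36 windows (36.1%). It was found in 21.8% of the windows of genes above background and in 8.75% of all windows. These 13 genes included 4 of complex IV (Cox4i1, Cox5b, Cox7a2 and Cox8a), both Sdhb and Sdhd of complex II, and Uqcrc2 and Uqcrq of complex III. Cox8a held 2 such matches beside its YY1 match, and Ndufa2 and Ndufa6 also held both motifs. Of the matches to the ETS core, 11 of 17 began within 50 bases of the start, and 3 examples with the core in capitals show that it occurs in either direction.
Cox5b, chr9:46417811-46417840, plus strand: ctctgtctgttcCCGGAAGtgcatctgctt
Uqcrq, chr10:38089983-38090012, minus strand: cttccgctcctcCCGGAAGtgacgtgcaaa
Ndufs8, chr1:210573693-210573722, minus strand: cttaggctccgcCTTCCGGttgacccgcac

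Shares of the remaining motifs lay above, near or below those of other windows. The core of the NRF1 site, GCATGCGC, was found for Ndufa6, Sdhb and Uqcrc1 (8.33% of the 36 windows, 5.55% of those of genes above background and 2.47% of all windows). The CRE, TGACGTCA, was found in 4 windows (11.1%, against 3.34% and 1.83%). The GC box, GGGCGG, was found in 13 windows (36.1%), below its share of 63.6% among genes above background and near its share of 33.1% among all windows. The CCAAT box was found in 10 windows (27.8%, against 39.9% and 37.5%) and the TATA box, TATAAA, in 3 (8.33%, against 6.75% and 14.2%). The median GC content was 58.3% for the 36 windows, 60.7% for genes above background and 51.7% for all windows. A match is a description of letters, and no binding was measured in these cells.

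**Figure D2:**
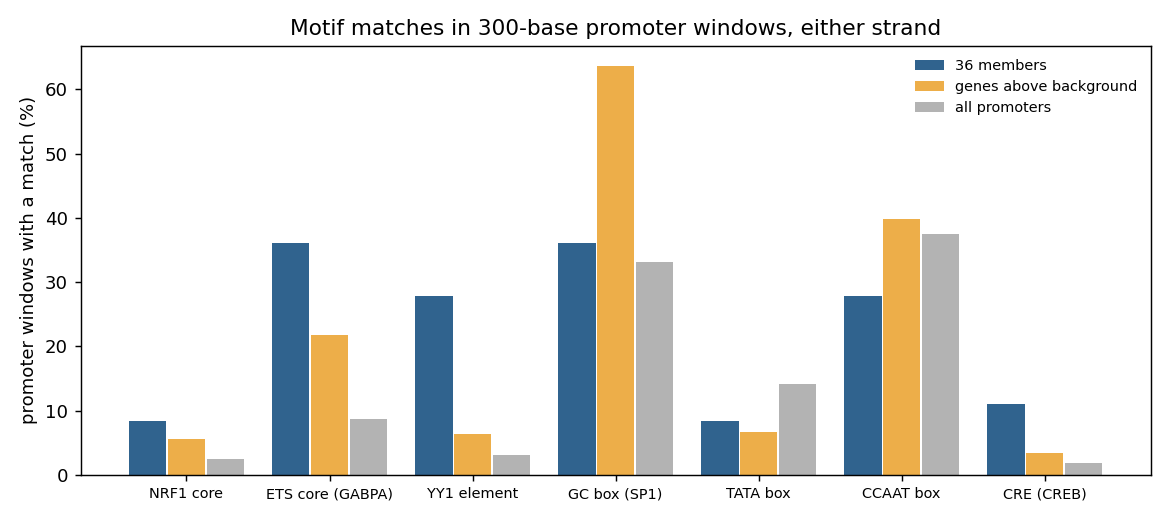
Share of promoter windows (y axis, %) that hold each of 7 motifs on either strand, for the 36 respiratory chain genes, for genes above background and for all windows. The chain genes stand above both other sets for the YY1 element (27.8%, 6.36% and 3.17%) and the ETS core (36.1%, 21.8% and 8.75%). They also do so for the CRE (11.1%, 3.34% and 1.83%) and the NRF1 core (8.33%, 5.55% and 2.47%). For the GC box they stand below the genes above background.

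In complex I the subunits that take electrons from NADH and carry the iron-sulfur clusters were all detected. Ndufv1, which binds NADH and the flavin cofactor, stood at 7.05, 6.76, 7.17 and 7.29 on replicates 1 to 4, a mean of 7.07 ± 0.23 (SD, n = 4). Ndufs1, the largest subunit and a carrier of iron-sulfur clusters, stood at 3.97, 3.98, 3.75 and 3.91, a mean of 3.90 ± 0.11 (SD, n = 4). The arrays of Ndufs1 lay close together, within 0.23 log2 units, while replicate 2 was the low array of Ndufv1. Ndufv2, the partner of Ndufv1 with its own cluster, had a mean of 6.91 ± 0.27 (SD, n = 4) and was highest on replicate 4.

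Ndufs7 and Ndufs8 carry the clusters that hand electrons on to ubiquinone. Ndufs7 stood at 6.26, 6.23, 6.66 and 6.93 (6.52 ± 0.34, SD, n = 4), so replicates 3 and 4 were above replicates 1 and 2. Ndufs8 stood at 4.35, 4.36, 4.57 and 4.83 (4.53 ± 0.23, SD, n = 4), with its arrays in a like arrangement. Ndufs3, a subunit of the same matrix arm without a cluster, stood at 6.04, 6.26, 6.62 and 6.69 (6.41 ± 0.30, SD, n = 4) and again had replicates 3 and 4 on top.

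Among the accessory subunits of complex I the spread between arrays ranged widely. Ndufa6, a small matrix-arm subunit whose promoter stretch is shown above, had the largest SD of the 38 genes under the main scaling. It stood at 6.58, 5.70, 6.10 and 6.31 (6.18 ± 0.37, SD, n = 4), with replicate 2 lowest. The neighbouring spots on that array deviated by a median of -0.24 log2 units around the Ndufa6 spot, the lowest such value for any of the 38 genes. With the local deviation subtracted the SD of Ndufa6 was 0.27, and Ndufs3 had the largest, at 0.35. Ndufb8, a subunit of the membrane arm, was among the steadiest, at 9.22, 9.16, 9.38 and 9.31 (9.27 ± 0.10, SD, n = 4). Ndufs5, on the intermembrane-space side, had replicate 1 on top and replicate 3 lowest, at 6.22, 5.81, 5.53 and 5.88 (5.86 ± 0.28, SD, n = 4).

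Ndufa4 was named as a complex I subunit and was later placed with cytochrome c oxidase. It stood at 6.96, 6.65, 6.48 and 6.52 (6.65 ± 0.22, SD, n = 4), with replicate 1 highest. Ndufa2, Ndufa5, Ndufa7 and Ndufa9, all accessory genes of the matrix arm, were detected on every array.

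Their means were 4.26 ± 0.19 for Ndufa2, 6.80 ± 0.23 for Ndufa5, 7.09 ± 0.16 for Ndufa7 and 6.04 ± 0.26 for Ndufa9, which lies near the ubiquinone site (SD, n = 4 each). Replicate 3 was the low array of Ndufa2 and Ndufa5, replicate 2 that of Ndufa7 and replicate 1 that of Ndufa9, so they had no array in common at the bottom. Among membrane-arm genes the means were 6.52 ± 0.17 for Ndufb2, 6.18 ± 0.14 for Ndufb3, 6.29 ± 0.15 for Ndufb5 and 7.09 ± 0.13 for Ndufb6 (SD, n = 4 each). Ndufb7, Ndufb9 and Ndufb10, which belong to the same arm, had means of 6.57 ± 0.18, 7.98 ± 0.14 and 6.63 ± 0.18 (SD, n = 4 each). None of these membrane-arm genes had an SD over that of Ndufb7 and Ndufb10, which lies below the median of 0.23 over all genes above background.

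Both genes not detected encode accessory subunits of complex I: Ndufs4 is a matrix-arm subunit needed for a stable complex and Ndufa10 is a subunit of the membrane arm. The Ndufs4 probe gave processed signals of 3.47, 3.25, 3.55 and 3.87 intensity units and the Ndufa10 probe 8.89, 10.3, 6.08 and 3.77. On every array both were below the lowest level of any probe that was well above background, which lay between -2.17 and -0.86 on the log2 scale. These signals are upper bounds without an order, and with 1 probe per gene a probe that fails and a transcript that is absent cannot be told apart. The promoter window of Ndufs4 held the YY1 letters like those of Ndufa6, Ndufa9, Ndufb8 and Ndufs7.

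Complex II, which oxidises succinate and also serves the citric acid cycle, was detected in full. Its flavoprotein gene Sdha stood at 4.81, 5.18, 4.93 and 5.13 (5.01 ± 0.17, SD, n = 4), with replicate 1 lowest. The iron-sulfur subunit gene Sdhb stood at 5.29, 5.44, 5.49 and 5.80 (5.50 ± 0.21, SD, n = 4), with replicate 4 highest and replicate 1 lowest. Both were therefore low on replicate 1.

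The membrane anchors of complex II, Sdhc and Sdhd, hold its haem and ubiquinone site between them. Sdhc stood at 4.14, 4.57, 4.88 and 4.71 (4.57 ± 0.32, SD, n = 4), again lowest on replicate 1. Sdhd stood at 5.43, 5.32, 5.14 and 5.25 (5.29 ± 0.12, SD, n = 4), where replicate 1 was highest. The 2 anchors of the same complex thus had opposite extremes on that array.

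Complex III was detected in all 6 genes. Uqcrfs1, the Rieske iron-sulfur protein, stood at 6.70, 7.08, 7.18 and 7.12 (7.02 ± 0.22, SD, n = 4), with replicate 1 below the other arrays. Cyc1, which encodes the haem protein cytochrome c1, stood at 7.91, 7.81, 8.31 and 8.35 (8.10 ± 0.27, SD, n = 4), with replicates 3 and 4 above the rest. A second Cyc1 probe also had replicates 3 and 4 above the rest, at 7.89, 7.91, 8.36 and 8.15. Its lowest array was replicate 1 and its highest replicate 3, against replicates 2 and 4 for the first probe.

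The core proteins of complex III, Uqcrc1 and Uqcrc2, differed in spread. Uqcrc1 stood at 6.44, 6.37, 6.83 and 7.04 (6.67 ± 0.32, SD, n = 4), with replicates 3 and 4 above the others. Uqcrc2 had the smallest SD under the main scaling (with quantile normalization that was Uqcrb, at 0.04), at 4.72, 4.57, 4.69 and 4.72 (4.67 ± 0.07, SD, n = 4). The small subunits Uqcrb and Uqcrq each had probes that differed in brightness. Uqcrb stood at 6.24, 6.32, 6.35 and 6.49 (6.35 ± 0.10, SD, n = 4) on its brighter probe, and its other probe was well above background on 1 array. Uqcrq had a mean of 7.78 ± 0.20 (SD, n = 4) on its brighter probe and -0.27 ± 0.04 (SD, n = 4) on the other. Their deviations had opposite signs on all 4 arrays, but those of the dimmer probe lay only between -0.06 and 0.04.

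The 7 genes of complex IV were all detected. Their median SD was 0.14, beside 0.19 for complexes I and II and 0.21 for complex III. Complex IV was not the lowest without replicate 1 (0.09 for complex III and 0.13 for complex IV). Nor was it with the local deviation subtracted (0.15 for complex II and 0.17 for complex IV). Without scaling complex III stood at 0.26 and complex IV at 0.38. With spike-in centring complex IV was the highest, at 0.53, beside 0.49, 0.52 and 0.50 for complexes I to III. Cox4i1, the common isoform of subunit IV, stood at 9.38, 9.16, 9.39 and 9.36 (9.32 ± 0.11, SD, n = 4), with replicate 2 apart from the other arrays by Dixon's ratio. It was the only one of the 38 members for which this held, against 4.91% of all genes above background. Cox5b, a zinc-binding subunit, stood at 8.56, 8.47, 8.79 and 8.59 (8.60 ± 0.14, SD, n = 4), with replicate 3 highest. Cox5a, on the matrix side, stood at 7.85, 7.84, 8.10 and 8.01 (7.95 ± 0.13, SD, n = 4). All 3 were lowest on replicate 2, although a second Cox5a probe was lowest on replicate 1, at 7.58.

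The small transmembrane subunits of complex IV were mostly low on replicate 2 as well. Cox8a stood at 8.61, 8.20, 8.50 and 8.53 (8.46 ± 0.18, SD, n = 4), with replicate 2 lowest. Cox6c was the exception, at 7.35, 7.10, 6.97 and 6.92 (7.08 ± 0.19, SD, n = 4), with replicate 1 highest and replicate 4 lowest. Cox6a1 and Cox7a2 had means of 9.93 ± 0.16 and 7.63 ± 0.13 (SD, n = 4 each) and were lowest on replicate 2. Of the 7 genes 6 were thus lowest on that array, as were 19.1% of all genes above background. With quantile normalization 1 of the 7 was lowest there, and without scaling 0.

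The replicates of the chain genes differed by little. The median SD of the 38 genes was 0.18 log2 units, or 13.5% of the linear signal, against 0.23 units (16.9%) for 6417 genes above background with a value on every array. The order turned after normexp correction with quantile normalization (0.17 for the chain genes and 0.16 for all), and without scaling both rose, to 0.35 and 0.38. No chain gene had an SD over 0.5, which 5.73% of those genes had, and 27 of the 38 were below the median SD of all. These comparisons were not matched on level. The 38 genes had mean levels of 3.90 to 9.93, while genes above background reached down to at least -0.17. The error that the scanner software assigns to a single spot was 0.14 log2 units for these genes. An SD above that error was found for 26 of the 38 (68.4%), near the 74.3% of all genes. That error is technical and holds no spread between cultures. It ran only from 0.1443 to 0.1448 over the 38 genes, so the count is of SDs above a nearly fixed value. Of 7 genes with 2 probes, 6 had both above background on all arrays. The widest gap between the deviations of such a pair was 0.36 log2 units, for Uqcrq. There the brighter probe deviated by 0.29 on replicate 1 and the dimmer by -0.06.

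**Figure D3:**
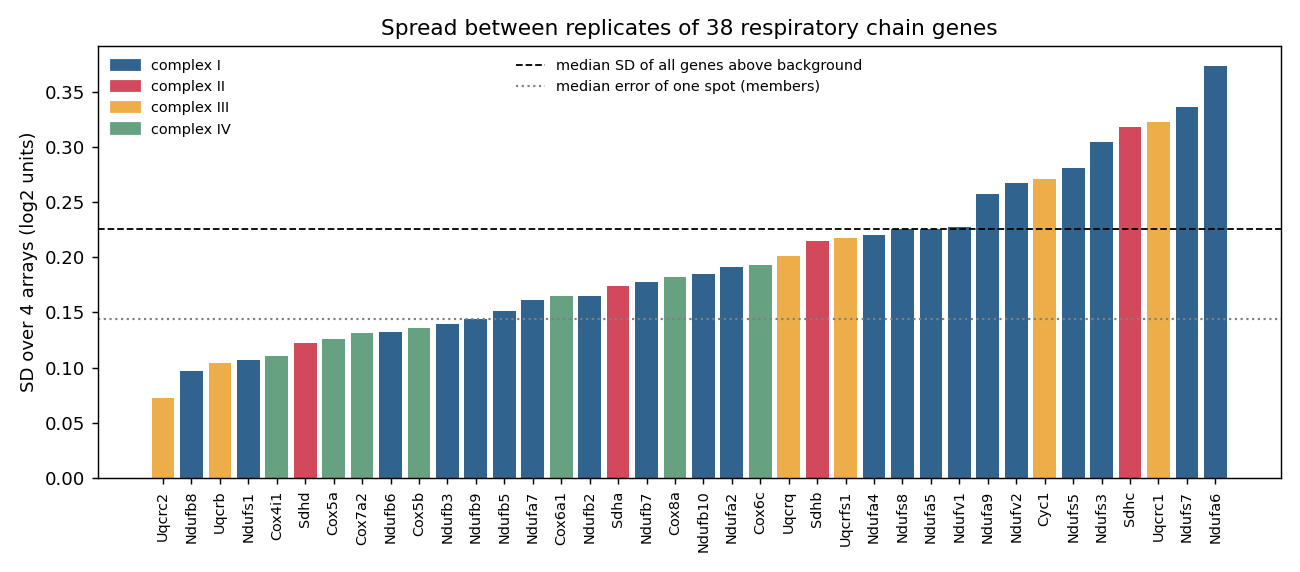
SD over the 4 arrays (y axis, log2 units) of each of the 38 genes above background, in rising order and coloured by complex. The dashed line is the median SD of all genes above background (0.23). The dotted line is the median error that the scanner software assigns to a single spot (0.14). SDs run from 0.07 for Uqcrc2 to 0.37 for Ndufa6, and the 7 genes of complex IV all lie below the dashed line.

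Deviations from the mean of each gene show how the complexes varied from array to array. The mean deviation of the complex I genes was 0.00, -0.13, -0.01 and 0.14 log2 units on replicates 1 to 4. That of complex II was -0.18, 0.03, 0.02 and 0.13. That of complex III was -0.08, -0.13, 0.07 and 0.14, and that of complex IV 0.07, -0.15, 0.05 and 0.03. With this scaling complexes I, III and IV had replicate 2 as their low array, and complex II had replicate 1. The median deviation of all genes above background was -0.06, -0.01, 0.02 and 0.06 on replicates 1 to 4. All genes were thus also lowest on replicate 1 and highest on replicate 4 by this median.

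The differences between complexes on the same array do not depend on any constant taken from the array. Complex II minus complex IV was -0.24, 0.18, -0.03 and 0.10 log2 units on replicates 1 to 4, a range of 0.42 and an SD of 0.18, the widest of the 6 pairs with all arrays and the brightest probes. That SD was 0.10 without replicate 1, when complex II minus complex III was wider at 0.11. With the mean of all probes these 2 pairs had SDs of 0.17 each. Complex I minus complex III stayed between -0.08 and 0.09. These are 4 values per pair, complex II rests on 4 genes, and they were not tested.

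**Figure D4:**
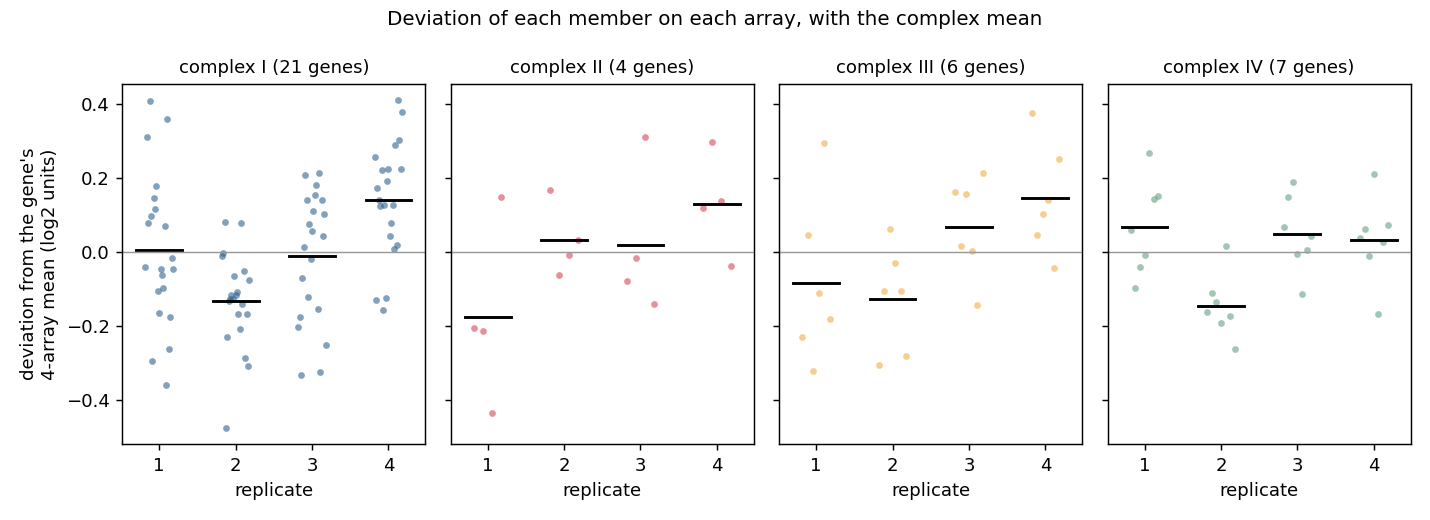
Deviation of each gene from its own mean over the 4 arrays (points, log2 units) by replicate (x axis), in a panel per complex, with the mean of the complex as a black bar. Complex IV lies low on replicate 2 (mean -0.15) and complex II on replicate 1 (mean -0.18), and single genes scatter around their own mean down to -0.48, for Ndufa6 on replicate 2.

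Set against all genes above background, the chain genes stood lower on replicate 2 only by a small amount. Their median deviation minus that of all genes was 0.02, -0.11, 0.01 and 0.06 log2 units on replicates 1 to 4, and -0.04 on replicate 2 after quantile normalization. Of the 38 genes 17 (44.7%) were lowest on replicate 2, against 19.1% of all genes. Another 10 were lowest on replicate 1, 9 on replicate 3 and 2 on replicate 4, where the shares of all genes were 37.4%, 22.4% and 21.1%. The count of 17 became 10 after quantile normalization (16.0% of all genes), 1 without scaling (5.03%) and 0 with spike-in centring (0.608%). Without replicate 1 it was 26 (40%). With the 75th percentile taken over detected probes it was 16, while the share of all genes was 14.3%. The count thus depends on the scaling, but did not always follow the share of all genes. Highest on replicate 4 were 17 genes (44.7%), near the 37.1% of all genes. Around the spots of the 38 genes the local deviation on replicate 2 was between -0.24 and 0.05, while the lowest on that array was -1.52.

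The 7 genes whose products carry iron-sulfur clusters, Ndufs1, Ndufs7, Ndufs8, Ndufv1, Ndufv2, Sdhb and Uqcrfs1, spanned 3 complexes. Their mean deviation was -0.14, -0.11, 0.00 and 0.25 log2 units on replicates 1 to 4, against 0.01, -0.12, 0.02 and 0.09 for the other 31 genes. The difference was -0.15, 0.01, -0.02 and 0.15. It was widest between replicates 1 and 4, and 5 of the 7 were highest on replicate 4, as were 17 of the 38 and 37.1% of all genes. This grouping was made with the values known and has no test.

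Other parts of the chain and of ATP synthesis were mostly detected. Of 18 further nuclear subunits and cytochrome c, 17 were well above background on all 4 arrays. The gene that was not, Cox7c of complex IV, passed on 3. Cycs, the electron carrier cytochrome c, had a mean of 4.96 ± 0.17 (SD, n = 4), and Cox7a2l, which takes part in joining complexes into supercomplexes, 6.75 ± 0.13 (SD, n = 4). All 15 measured genes of ATP synthase, which uses the proton gradient of the chain, were detected. Its inhibitor gene Atp5if1 had a mean of 7.24 ± 0.08 (SD, n = 4), while Atp5f1b, the catalytic beta subunit, stood at 5.93, 6.39, 6.27 and 7.16 (6.43 ± 0.52, SD, n = 4), with replicate 4 highest.

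Of 6 measured isoforms that replace a subunit in certain tissues, 3 passed on all 4 arrays (50%, against 38.7% of all genes). The other 3, Cox8b, Cox8c and Ndufa4l2, passed on none. Cox4i2, the isoform of Cox4i1 known from lung, stood at 2.11, 1.80, 2.03 and 1.87 (1.95 ± 0.14, SD, n = 4). Cox6a2, known from heart and skeletal muscle, had a mean of 3.80 ± 0.32 (SD, n = 4) and Cox6b2, known from testis, 4.80 ± 0.47 (SD, n = 4). Of 8 muscle genes, Tnnt2 and Mb passed on all arrays, with means of 1.31 ± 0.38 and 0.68 ± 0.36 (SD, n = 4 each), and the defining genes Ckm, Acta1, Myh1, Myh6 and Myh7 were well above background on none. Of 25 measured assembly factors, which help build the complexes without staying in them, 19 passed on all arrays (76%). Cox11, Cox19 and Cox20 passed on none. None of the 13 subunits encoded by mitochondrial DNA could be tied to a probe, so that part of the core of complexes I, III and IV was not analysed here.

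**Figure D5:**
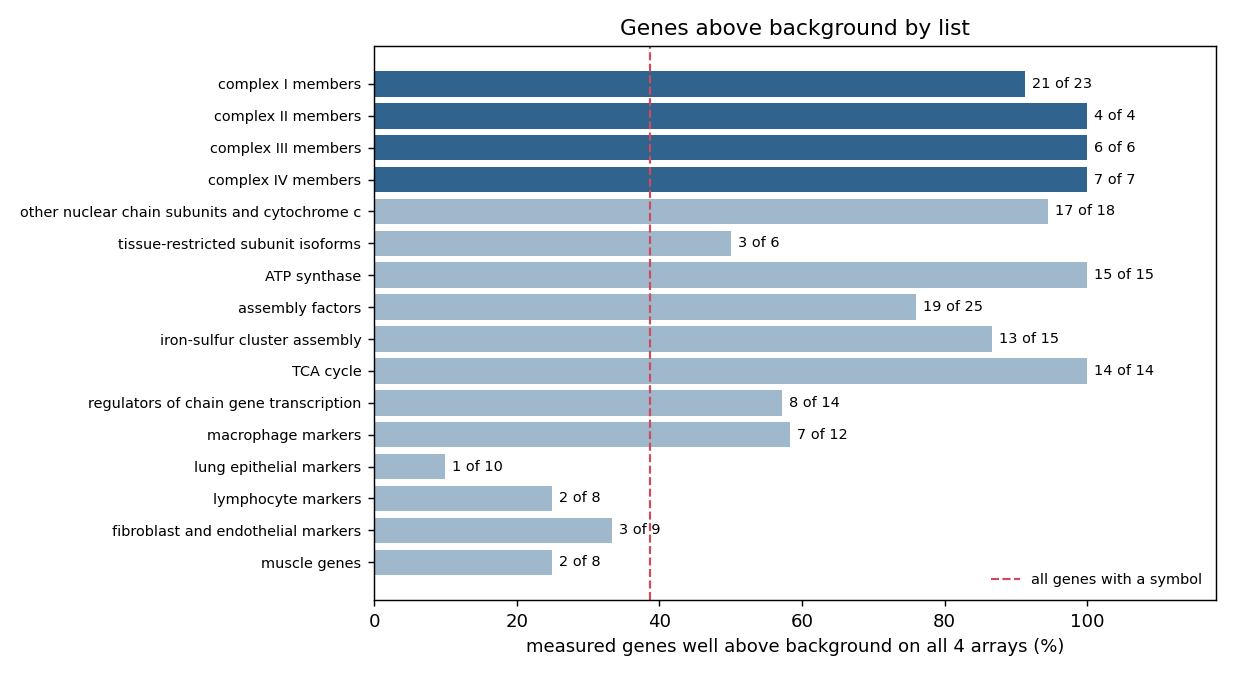
Share of measured genes well above background on all 4 arrays (x axis, %) for the 4 complexes (dark bars) and for other lists (light bars), with counts beside the bars; the dashed line is the share over all genes with a symbol (38.7%). The complexes stand between 91.3% and 100%, the tissue-restricted isoforms at 50% and the lung epithelial markers at 10%.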

How the data were processed

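Spots were quantified in Agilent Feature Extraction (version 11.0.1.1, per the submitters' processing notes). What the authors deposited are intensities: a processed signal per spot, background-subtracted and detrended within the array but not scaled between arrays, its error, the median signals of spot and background, and flags of 0 or 1. All 4 arrays share 1 slide and scan time, per the file headers. Control and outlier spots were left out and spots of a probe averaged on the log2 scale (45598 probes). Accessions were matched to RefSeq transcripts of GRCr8, which named 21109 probes; 24489 stayed unnamed and 0 had several symbols. The array design names rn4, so probe coordinates are not given; promoter coordinates are those of GRCr8.

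A gene's level is that of its brightest probe. A gene was above background if any of its probes carried the well-above-background flag on all 4 arrays, with at least 0.5 of its spots. Members, gene lists, roles and motifs were chosen with earlier results of these data known. By rule, values on each array are given for members listed by role, for the 5 largest and 3 smallest SDs, for undetected members and for those with an array apart; of other lists, undetected genes and a few set ones are named. Ndufs5, Cox6a2, Cox6b2, Tnnt2, Mb and the detected markers were added after their values were seen. Alternatives were other flags, probe rules, scalings, a normexp correction on median signals (offset 50, limma 3.58.1, R 4.3.3), subtraction of the local median deviation (spots within 10 rows and columns), and leaving out each replicate. The steps were tested on simulated data. Python 3.11.15, numpy 2.4.6 and pandas 2.3.3 were used. No test between groups was possible, and the number of arrays limits precision.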

Additional observations from a re-analysis of the deposited data

Results flagged for a closer look

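Of 54 values checked for an array apart from the other 3 by Dixon's ratio, 2 exceeded the 95% critical value, and chance gives about 1 in 20. Both concern complex IV and replicate 2. The level of Cox4i1 on replicate 2 was 9.16 against 9.36 to 9.39 on the other arrays (Dixon's ratio 0.877). The mean deviation of the 7 complex IV genes was -0.15 on replicate 2 against 0.03 to 0.07 on the others (Dixon's ratio 0.840). Of the 7 genes 6 were lowest on replicate 2, but 1 with quantile normalization and 0 without scaling. The values overlap, since Cox4i1 is part of that mean. Of the 38 members 1 exceeded the limit (2.63%), against 4.91% of 6417 genes above background.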

How the results depend on the processing

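The counts of members above background, 38 in all and 21, 4, 6 and 7 by complex, were within 1.5 times under every alternative run: the other flag, 3 of 4 arrays, all probes required, Ndufa4 moved to complex IV and each replicate left out. The share of all genes ran from 33.2% with all probes required to 50.9% with the other flag. Measures of spread depended on scaling, since a constant per array moves all members together. Their median SD, 0.18, became 0.35 without scaling (0.38 for all genes) and 0.51 with spike-in centring (0.57). After normexp it was 0.17, above the 0.16 of all genes, so the order of members and all genes turned. The SD between arrays of the member mean became 0.34 without scaling, 0.49 with spike-in centring, 0.0536 with quantile normalization, 0.0557 with normexp and 0.0535 when the percentile came from detected probes. Unscaled, the SDs of the means of complexes I to IV were 0.355, 0.286, 0.289 and 0.385, and with spike-in centring 0.487, 0.505, 0.455 and 0.539. For complexes II and III they were 0.0825 and 0.0231 with quantile normalization and 0.0701 and 0.0314 with normexp, and for complex III 0.0622 when the percentile came from detected probes. Leaving out 1 replicate gave 0.0599 to 0.156 for complex II, lowest without replicate 1, and 0.0172 to 0.118 for complex IV, lowest without replicate 2. The members lowest on replicate 2 were counted in ways chosen after seeing the data. They were 1 without scaling (5.03% of all genes), 0 with spike-in centring (0.608%), 10 with quantile normalization (16.0%) and 10 with normexp (16.6%). With a replicate left out they were 17 to 26 (25.5% to 40%). When the percentile came from detected probes they were 16 (14.3%). Differences between complexes moved too: the smallest SD of a pair was that of complexes III and IV with the mean of all probes (0.0312) and of II and III with normexp (0.0557). With the percentile over detected probes, which shifts the zero point, the levels of Ndufa2 and Ndufs1 turned negative, at -0.19 and -0.55. Signal limits Ndufa10 and Ndufs4, for which the arrays give only an upper bound. No paired analysis was possible because there is 1 group.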

Other observations

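Genes that supply the chain were mostly detected as well. All 14 measured genes of the citric acid cycle were well above background on all 4 arrays, among them Cs, citrate synthase, at 4.38 ± 0.17 (SD, n = 4). Of 15 measured genes of iron-sulfur cluster assembly 13 passed (86.7%, against 38.7% of all genes with a symbol). Iscu, the scaffold on which clusters are built, stood at 3.36, 3.46, 3.53 and 3.97 (3.58 ± 0.27, SD, n = 4), with replicate 4 highest. Slc25a37, an importer of iron into mitochondria, passed on no array.

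Of 14 regulators of chain gene transcription 8 passed on all arrays (57.1%, against 38.7% of all genes with a symbol). Tfam, which packages and transcribes mitochondrial DNA, stood at 3.25 ± 0.10 and Nrf1 at 0.78 ± 0.31 (SD, n = 4 each). Gabpa passed on 2 arrays and Yy1 on 1, so these 2 genes were read near background by their 1 probe each. Other factors that may bind the ETS core were not examined. The coactivator genes Ppargc1a and Ppargc1b passed on no array.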
